A study of Mus musculus with 2 samples.

Results

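The 49 genes described here encode the machinery that fuses platelet granules with the cell surface and the proteins that build those granules in the megakaryocyte. They were chosen by name, as SNARE proteins, their regulators, and granule biogenesis factors, and a gene was followed through every probe set (a group of short probes read out as 1 signal) that carries its symbol alone in the array annotation. Of the 49, 48 have at least 1 such probe set, 107 probe sets in all, out of 18193 annotated genes. Bloc1s1, a subunit of BLOC-1, was not analysed because its probe set carries a second gene symbol.

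Washed platelets were taken from C57BL/6 Smad4 −/− mice, in which Cre recombinase under the PF4 promoter removes a loxP-flanked Smad4 in megakaryocytes and platelets. They were set against washed platelets of C57BL/6 Smad4 f/f mice, which carry the same loxP-flanked Smad4 and are labelled as wild-type controls. The labels give no age or sex, and they do not say whether the Smad4 f/f mice carry Cre. There are 6 mice and 1 array per genotype, so every difference is between 2 arrays, has no replicate check and no p-value, and is only as precise as this number of arrays allows.

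In regulated secretion, an R-SNARE on the granule membrane (a VAMP) zips together with a syntaxin and a SNAP-23 family protein on the target membrane. Sec1/Munc18 and Munc13 proteins prepare the syntaxin and tether the granule, and NSF with its SNAP adaptors takes the spent complexes apart. Platelets release alpha granules, dense granules and lysosomes in this way. Alpha granules depend on NBEAL2 and VPS33B, and dense granules, which belong to the lysosome-related organelles, on the BLOC complexes, AP-3 and LYST; loss of these in humans or mice causes bleeding disorders such as gray platelet syndrome, Hermansky-Pudlak syndrome and Chediak-Higashi syndrome.

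Values are MAS5 signals as the authors scaled them. A gene is represented by the brightest of its probe sets, by the average of the log2 values of both arrays; those ending in _x_at, a class open to cross-hybridisation, were used only for genes with no other. Signals below 145 (log2 7.18, the higher of the arrays' 60th percentiles) were raised to that floor, so a ratio with 1 array below it is a lower bound. A gene counts as measured if at least 1 array reaches the floor. Ratios are Smad4 −/− over Smad4 f/f, and 2-fold (log2 1) and 1.5-fold (log2 0.58) serve only as rules of size. Probe sets differ in brightness for the same amount of RNA, so signals are compared between arrays and not between genes.

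The promoters of 4 genes that were at least 1.5-fold lower in Smad4 −/− are shown first, the pair past 2-fold, Abcc4 and Ston2, with the R-SNARE Vamp8 and the BLOC-2 subunit Hps3, to show where the SMAD-binding letters occur in them or are missing; the lower syntaxins and BLOC-1 genes are not shown. Each is the 250 bases before the gene's annotated start, from RefSeq on GRCm38.p6, on the minus strand, 5′ to 3′: chr14:118706220-118706469 for Abcc4 (the first of 2 starts listed), chr12:91786437-91786686 for Ston2, chr6:72390668-72390917 for Vamp8 and chr3:20035311-20035560 for Hps3. Capitals mark CAGAC or its reverse complement GTCTG, the core letters that SMAD proteins bind.
Abcc4: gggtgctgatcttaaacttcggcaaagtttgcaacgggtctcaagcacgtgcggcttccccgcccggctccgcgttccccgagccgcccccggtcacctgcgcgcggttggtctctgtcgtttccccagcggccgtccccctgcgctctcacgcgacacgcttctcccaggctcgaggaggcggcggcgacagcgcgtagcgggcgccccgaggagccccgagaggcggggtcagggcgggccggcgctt
Ston2: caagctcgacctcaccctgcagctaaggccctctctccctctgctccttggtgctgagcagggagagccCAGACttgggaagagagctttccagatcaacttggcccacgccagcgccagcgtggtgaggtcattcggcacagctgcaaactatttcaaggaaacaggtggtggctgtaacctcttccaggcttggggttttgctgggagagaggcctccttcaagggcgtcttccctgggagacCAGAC
Vamp8: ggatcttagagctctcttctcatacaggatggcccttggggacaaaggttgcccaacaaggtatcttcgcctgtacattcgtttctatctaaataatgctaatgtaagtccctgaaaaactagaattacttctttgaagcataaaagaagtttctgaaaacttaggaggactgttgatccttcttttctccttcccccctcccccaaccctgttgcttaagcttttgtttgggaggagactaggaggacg
Hps3: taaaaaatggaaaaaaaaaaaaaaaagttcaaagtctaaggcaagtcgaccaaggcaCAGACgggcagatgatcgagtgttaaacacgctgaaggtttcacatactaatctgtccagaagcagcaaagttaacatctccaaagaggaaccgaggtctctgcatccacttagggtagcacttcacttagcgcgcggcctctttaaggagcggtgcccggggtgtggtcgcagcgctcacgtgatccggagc

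The Ston2 window holds CAGAC at 2 places, the Hps3 window at 1, and the printed Abcc4 window and the Vamp8 window at 0. The window of the second Abcc4 start, not printed, holds CAGAC or GTCTG at 1 place. The same letters, on either strand, occur in 42.2% of the 32851 promoter windows of this length in the RefSeq table. They occur in 20 of the 49 windows (40.8%) listed for 42 of the genes described here, and in 6 of the 12 windows of the 10 genes that were at least 1.5-fold lower. Of the letters bound by the megakaryocyte factors of the GATA and ETS families, AGATAA (reverse complement TTATCT) was in 0 of those 12 windows and CCGGAA (reverse complement TTCCGG) in 1, against 9.99% and 12.0% of all windows. Neither AGATAA nor CCGGAA is in the 4 windows printed, so no motif overlaps another there. A match of letters is a description and does not show binding.

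Smad4 itself had almost the same signal in both genotypes, 894 in Smad4 −/− and 949 in Smad4 f/f (log2 ratio −0.09). Whether its probe sets lie in the deleted part is not known here, so they do not check the genotype. All 11 platelet markers with a probe set, among them Pf4 and Itga2b, were measured and lay within 1.5-fold, with a summed signal of 1195503 in Smad4 −/− and 1142357 in Smad4 f/f. Erythroid markers were at least 2-fold higher in Smad4 −/− for 4 of 5 measured genes (summed signal over the 7 with a probe set 26218 in Smad4 −/− and 9682 in Smad4 f/f). T cell markers summed to 14100 in Smad4 −/− and 5644 in Smad4 f/f, most of it Cd28. Among the weaker T cell markers Cd3d, of the T cell receptor complex, read 181 in Smad4 −/− and 356 in Smad4 f/f, 1.97-fold lower, and Trat1 read 303 in Smad4 −/− and 145, just below the floor, in Smad4 f/f, at least 2.08-fold higher, while Cd3e and Cd3g were below the floor on both arrays. B cell markers summed to 4781 in Smad4 −/− and 4250 in Smad4 f/f, and neutrophil markers to 7887 in Smad4 −/− and 6087 in Smad4 f/f. For monocyte and macrophage markers, most of it Lyz2, the sums were 132952 in Smad4 −/− and 141342 in Smad4 f/f. Of the 6 measured, Csf1r (518 in Smad4 −/− and 167 in Smad4 f/f) and Adgre1 (351 in Smad4 −/− and 199 in Smad4 f/f) were 3.11-fold and 1.76-fold higher, whereas Ms4a6c (361 in Smad4 −/− and 720 in Smad4 f/f) was 2.00-fold lower and Mpeg1 (70.7, below the floor, in Smad4 −/− and 280 in Smad4 f/f) at least 1.93-fold lower. Csf1r has 3 measured probe sets, the lowest with a log2 ratio of −0.48. Ms4a6c has 2, the higher with a log2 ratio of 0.32. For Csf1r and Ms4a6c the sign therefore depends on the probe set. The sums for endothelial markers, most of it Esam, were 31776 in Smad4 −/− and 24545 in Smad4 f/f. All 6 mast cell and basophil markers with a probe set were below the floor on both arrays. The 3′ over 5′ signal of Gapdh, which reflects RNA quality, stood at 2.61 in Smad4 −/− and 1.86 in Smad4 f/f, and that of beta-actin at 1.27 in Smad4 −/− and 1.16 in Smad4 f/f. The part of other cells and of RNA quality in the ratios below was not tested, and in bulk platelets fewer cells of a kind and less RNA per cell cannot be told apart.

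Of the 48 genes with a probe set, 43 were measured, 39 of them above the floor on both arrays, 2 above it only in Smad4 −/− and 2 only in Smad4 f/f. At least 2-fold lower in Smad4 −/− were 2 genes, Abcc4 and Ston2, 4.65% of the 43, against 3.58% of the 11089 measured genes. At least 2-fold higher were 0, against 3.42% of all. At the 2-fold rule the list is therefore near the background. At the 1.5-fold rule 10 were lower (23.3%, against 13.3% of all measured genes) and 1 was higher (2.33%, against 11.8%). With median centring of the arrays these counts were 7 lower and 2 higher, against 10.8% and 15.1% of all. With no floor they were 10 lower of 48 (20.8%) and 4 higher (8.33%), against 26.2% and 23.2% of all genes. The list's share on the lower side was then the smaller one. That background holds all 18193 genes, including those below the floor on both arrays, so it covers other signals than the background above. With the floor at the 50th percentile 10 of 45 were lower, against 16.7% of all measured genes. With it at the 75th percentile 7 of 39 were lower, against 8.68%. Among the 39 genes above the floor on both arrays, 8 were at least 1.5-fold lower (20.5%, against 11.3% of the 7876 such genes) and 0 higher (against 10.8%). No test was run on these counts, and 4 of the 43 were measured through 1 array alone.

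**Figure D1:**
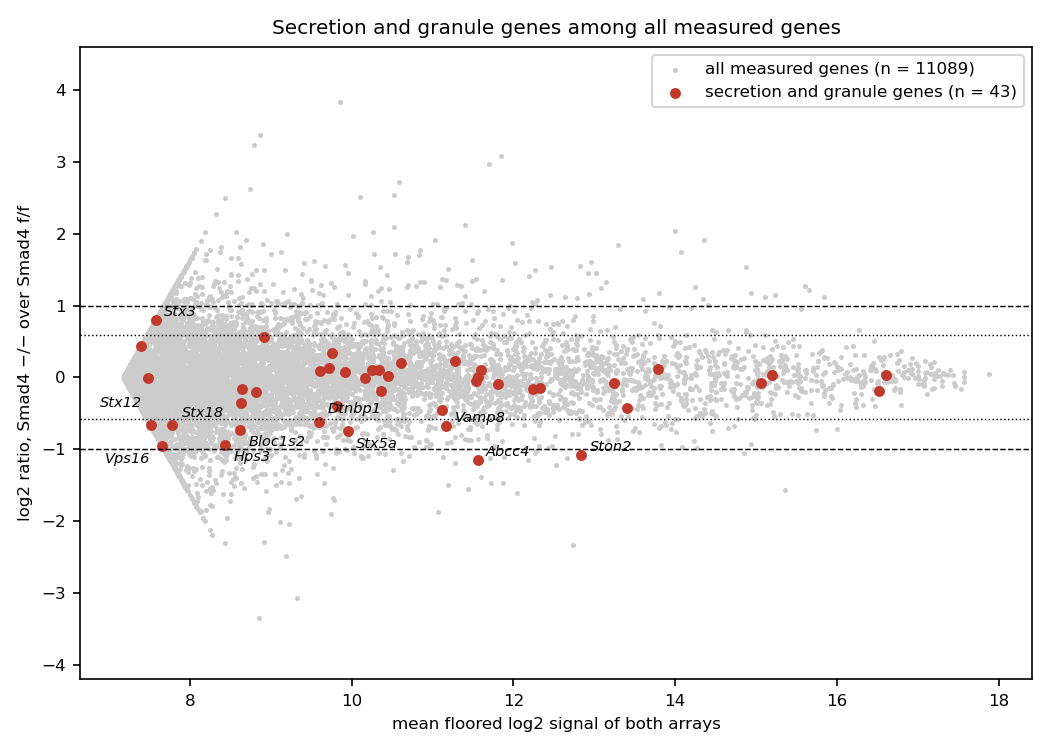
Each point is a gene, placed by its mean floored log2 signal (x axis) and its log2 ratio, Smad4 −/− over Smad4 f/f (y axis). Grey points are the 11089 measured genes and red points the 43 measured secretion and granule genes; dashed lines mark 2-fold and dotted lines 1.5-fold. Abcc4 and Ston2 lie below the lower dashed line, and Stx3 alone lies above the upper dotted line.

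The list as a whole was close to no difference. Its median log2 ratio was −0.08, with 26 genes below 0 and 17 above, against a median of −0.02 over all measured genes, of which 51.7% lay below 0. With median centring the median of the list was 0.01 and 20 genes lay below 0, against a median of 0.06 over all measured genes. The sign of the list's median thus depends on the scaling, while under both scalings it lay slightly below the median of all genes. With no floor it was −0.03, against −0.04 over all genes. Single ratios ran from −1.15 for Abcc4 to 0.79 for Stx3. Probe sets of the same gene give a technical yardstick for them: their log2 ratios had a pooled SD of 0.53 over the 22 genes here with more than 1 measured probe set, and 0.48 over 4252 such genes on the array. This spread holds no difference between animals, and 9 of the 11 genes past 1.5-fold have only 1 measured probe set.

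**Figure D2:**
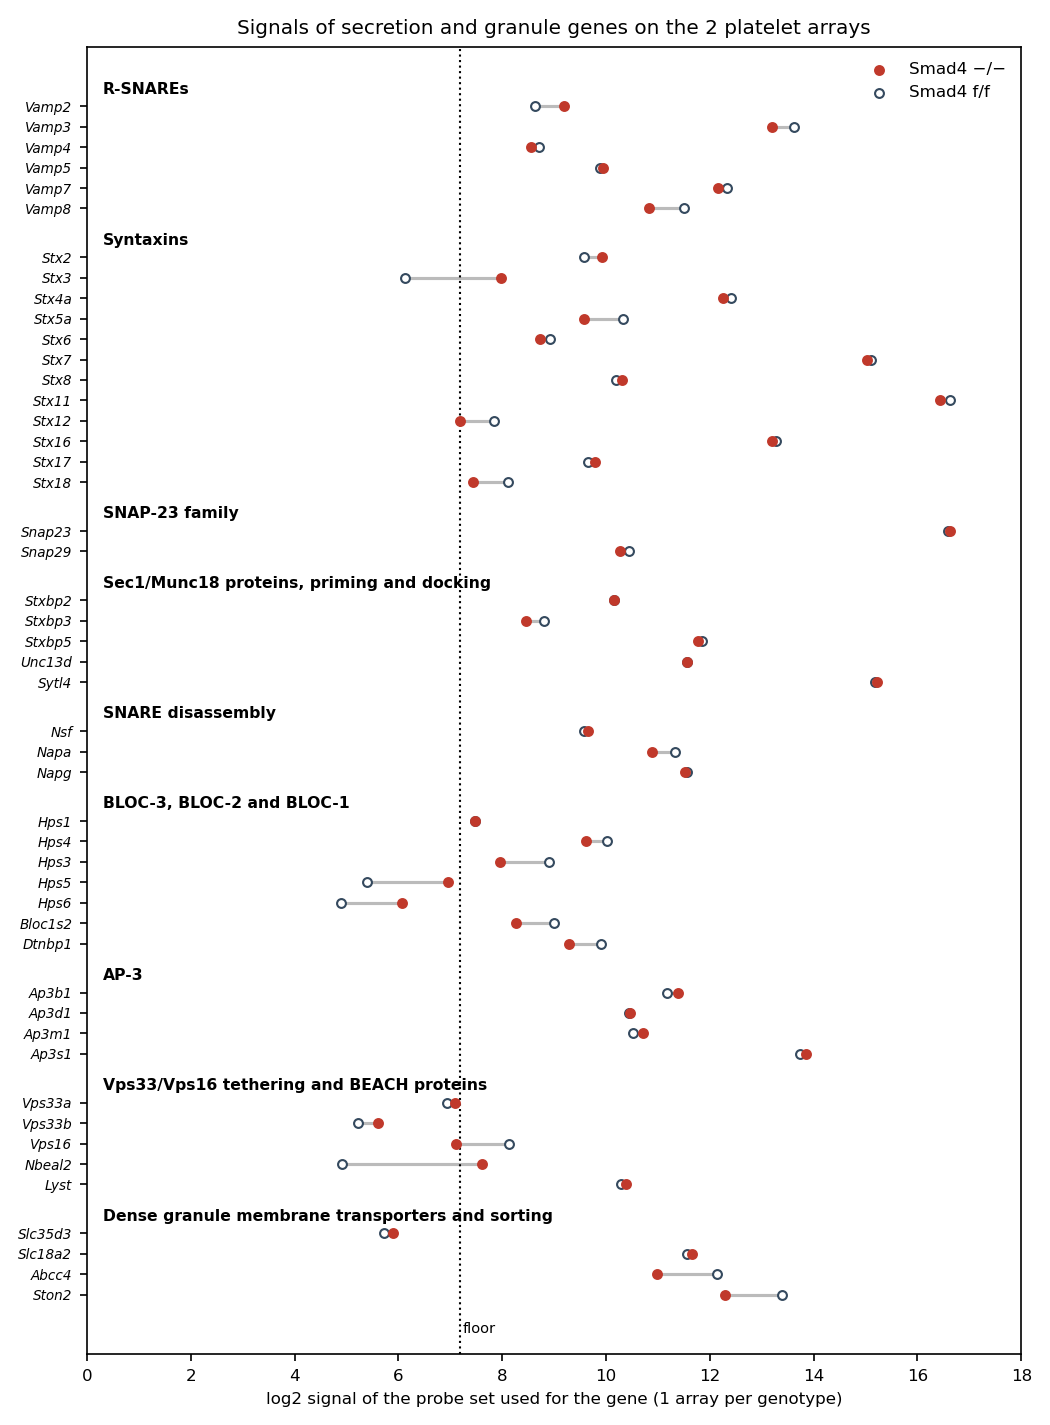
Log2 signal (x axis) of the probe set used for each of 48 genes (rows, grouped by role), with Smad4 −/− as filled red points and Smad4 f/f as open points, 1 array each. The dotted line is the floor at log2 7.18. Most pairs nearly coincide, while Abcc4, Ston2, Hps3 and Vamp8, among others, show a gap with Smad4 −/− to the left. The widest gaps, of Nbeal2, Stx3, Hps5 and Hps6, have Smad4 −/− to the right, with Smad4 f/f below the floor.

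Among the 6 R-SNAREs, which sit on granules and other vesicles, Vamp8 was the only one past 1.5-fold (against 13.3% of all measured genes lower and 11.8% higher). Vamp8, the main VAMP of granule release in mouse platelets, had a signal of 1820 in Smad4 −/− and 2919 in Smad4 f/f, 1.60-fold lower (log2 ratio −0.68). It has 1 probe set. With median centring, quantile normalisation and loess correction it stayed past 1.5-fold, between −0.71 and −0.59, the last (median centring) close to the rule. The floor and probe set rules could not change it, because its probe set lies above every floor. Vamp5, the next protein-coding gene on chromosome 6 with 0 genes between, gave 988 in Smad4 −/− and 942 in Smad4 f/f, a log2 ratio of 0.07.

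Vamp3, cellubrevin, which serves recycling and, beside Vamp8, granule release, gave 9413 in Smad4 −/− and 12602 in Smad4 f/f, a log2 ratio of −0.42. Its 5 measured probe sets ran from −2.31 to 0.22. The lowest was at least 4.94-fold lower, with a signal of 61.6 in Smad4 −/− and 718 in Smad4 f/f, and the other 4 lay within 1.5-fold. Vamp4, a VAMP of the trans-Golgi and endosomes, read 378 in Smad4 −/− and 421 in Smad4 f/f, a log2 ratio of −0.16. A weaker Vamp4 probe set gave 435 in Smad4 −/− and 166 in Smad4 f/f, 2.62-fold higher, and the mean over the gene's probe sets was 0.42. For these genes the choice of probe set therefore decides the size and the sign. Vamp7, a VAMP of late endosomes and lysosomes, had a log2 ratio of −0.16 with both probe sets alike. Vamp2, synaptobrevin, had one of 0.56, with 587 in Smad4 −/− and 398 in Smad4 f/f, and passed 1.5-fold on the higher side with 3 of the alternatives, median centring, quantile normalisation and loess correction.

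The syntaxins with the brightest probe sets hardly differed. Stx11, the syntaxin that platelet granule release requires, read 88373 in Smad4 −/− and 100750.4 in Smad4 f/f, a log2 ratio of −0.19, and 0.02 by its other probe set. Stx7, Stx16, Stx4a, Stx6 and Stx8, which serve endosomes, the trans-Golgi or, in the case of Stx4a, the plasma membrane, lay between −0.20 and 0.11. Stx2, a plasma membrane syntaxin, had a log2 ratio of 0.34. Stx17, a syntaxin of autophagosomes, had one of 0.13 (884 in Smad4 −/− and 808 in Smad4 f/f), and its 3 measured probe sets spread from −0.07 to 0.56.

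Of the 12 measured syntaxins, 3 were at least 1.5-fold lower in Smad4 −/− (against 13.3% of all measured genes) and 1 was higher (against 11.8%). Stx5a, a syntaxin of traffic between endoplasmic reticulum and Golgi, read 767 in Smad4 −/− and 1285 in Smad4 f/f, 1.68-fold lower. That rests on a probe set ending in _s_at, shared by several transcripts, and the other Stx5a probe set was below the floor on both arrays. Stx18, of the endoplasmic reticulum, read 174 in Smad4 −/− and 276 in Smad4 f/f, 1.59-fold lower. Its 4 measured probe sets were all below 0, from −1.23 to −0.03. Stx12, of endosomes, read 145 in Smad4 −/−, just below the floor, and 230 in Smad4 f/f, at least 1.59-fold lower. Stx18 and Stx12 lie near the floor, and with the floor at the 75th percentile Stx18 had a log2 ratio of −0.09 and Stx12 was no longer measured.

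Stx3, a plasma membrane syntaxin of epithelia and mast cells, was the only gene of the list past 1.5-fold on the higher side. Its signal was 252 in Smad4 −/− and 70.3, below the floor, in Smad4 f/f, at least 1.73-fold higher. The other 3 Stx3 probe sets were below the floor on both arrays, so this rests on 1 weak signal.

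Snap23, the SNAP-23 family partner in platelet granule fusion, was level, with 100833 in Smad4 −/− and 98675 in Smad4 f/f (log2 ratio 0.03) and −0.11 and −0.21 by its other probe sets. Snap29, its relative on internal membranes, had a log2 ratio of −0.18.

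The regulators of fusion also lay within 1.5-fold. Unc13d, Munc13-4, which primes and tethers granules, read 3028 in Smad4 −/− and 3006 in Smad4 f/f, a log2 ratio of 0.01. Stxbp2, Munc18-2, the partner of syntaxin 11, read 1145 in Smad4 −/− and 1146 in Smad4 f/f, a log2 ratio of −0.002. The remaining Stxbp2 probe sets, both ending in _x_at, gave 0.90 and −0.78, opposite ways around that value. Sytl4, granuphilin, a Rab27 effector on granules, read 38089 in Smad4 −/− and 37243 in Smad4 f/f, a log2 ratio of 0.03. Stxbp5, tomosyn-1, which binds syntaxins in place of a VAMP, read 3489 in Smad4 −/− and 3711 in Smad4 f/f, a log2 ratio of −0.09. Its weakest probe set gave −0.86. Stxbp3, Munc18c, had a log2 ratio of −0.35. Of the set that serves platelet granule fusion, Vamp8, Stx11, Snap23, Stxbp2 and Unc13d, 1 of 5, Vamp8, was thus at least 1.5-fold lower. Of all measured genes 13.3% were at least 1.5-fold lower and 11.8% higher, and 1 of 5 cannot be told from these shares.

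The genes that take SNARE complexes apart depended on the probe set. Nsf, the ATPase, read 808 in Smad4 −/− and 761 in Smad4 f/f, a log2 ratio of 0.09, by a probe set ending in _s_at. Its next probe set, with nearly the same average of log2 values, gave −0.97 (553 in Smad4 −/− and 1084 in Smad4 f/f) and the third −0.49. Napa, alpha-SNAP, read 1894 in Smad4 −/− and 2589 in Smad4 f/f, a log2 ratio of −0.45, whereas its weaker probe set gave 0.84. No single direction can be given for Nsf or Napa. Napg, gamma-SNAP, was level by both measured probe sets (−0.05 and −0.01).

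**Figure D3:**
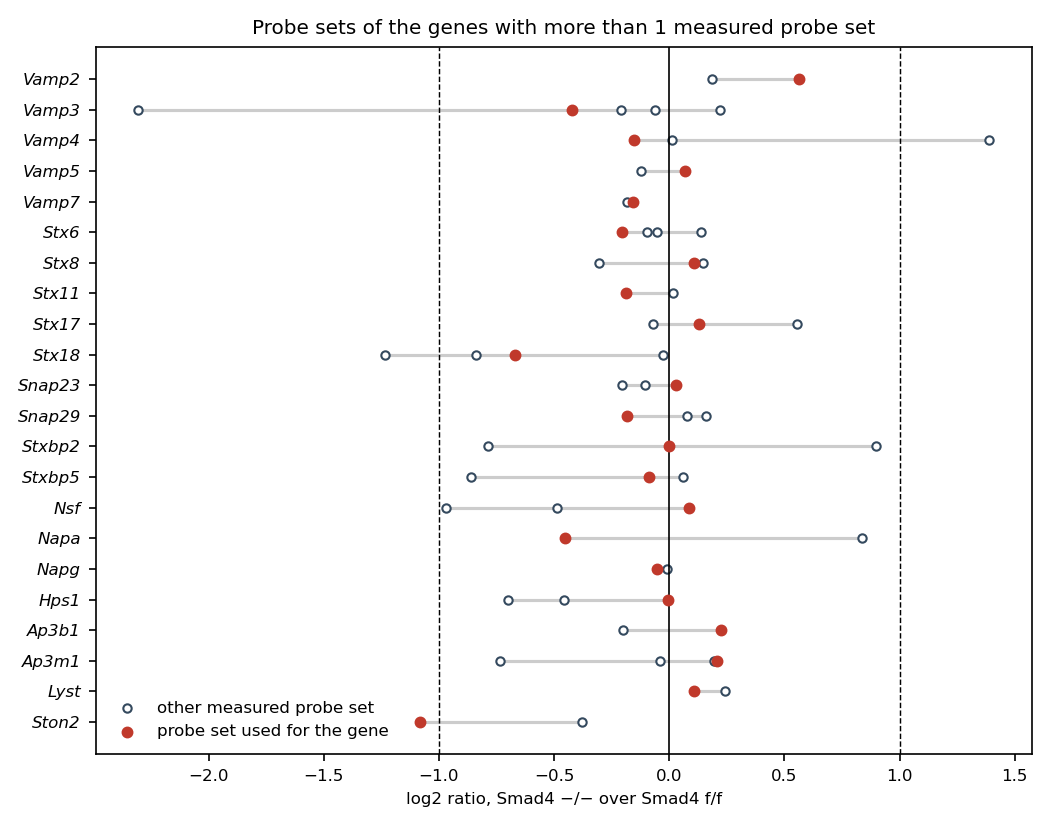
Log2 ratios, Smad4 −/− over Smad4 f/f (x axis), of all measured probe sets of the 22 genes with more than 1 (rows). Filled red points are the probe sets used for the gene and open points the others; dashed lines mark 2-fold. Snap23, Stx11, Napg and Vamp7 probe sets lie close together, while those of Vamp3, Vamp4, Stxbp2 and Napa spread over more than 1 log2 unit.

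Turning to granule biogenesis, the measured BLOC genes (biogenesis of lysosome-related organelles complexes) of the list lay below 0. All 5, Hps3, Bloc1s2, Dtnbp1, Hps4 and Hps1, had a log2 ratio below 0 (4 with median centring, quantile normalisation or loess correction), and 3 of the 5 were at least 1.5-fold lower in Smad4 −/− (against 13.3% of all measured genes), with a median of −0.62 (−0.02 over all measured genes). With no floor 7 were measured, of which 5 lay below 0, 3 were at least 1.5-fold lower and 2 at least 1.5-fold higher. Hps3, a BLOC-2 subunit, read 250 in Smad4 −/− and 478 in Smad4 f/f, 1.91-fold lower. Bloc1s2, of BLOC-1, read 307 in Smad4 −/− and 508 in Smad4 f/f, 1.66-fold lower. Dtnbp1, dysbindin, also of BLOC-1, read 627 in Smad4 −/− and 963 in Smad4 f/f, 1.54-fold lower. Each of these 3 rests on 1 measured probe set, and with median centring Dtnbp1 came to −0.53, below the 1.5-fold rule.

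The BLOC-3 genes, which encode the exchange factor for Rab32 and Rab38, were closer to 0. Hps4 read 786 in Smad4 −/− and 1038 in Smad4 f/f, a log2 ratio of −0.40. Hps1 read 178 in Smad4 −/− and 179 in Smad4 f/f, a log2 ratio of −0.01, which turned above 0 with median centring, quantile normalisation and loess correction. Its remaining measured probe sets gave −0.46, by the brightest, which ends in _x_at, and −0.70. Hps5 and Hps6, the other BLOC-2 subunits, were below the floor on both arrays, at 124 and 67.6 in Smad4 −/− and 42.1 and 29.9 in Smad4 f/f.

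The other BLOC-1 subunits went both ways. Bloc1s5, muted, read 153, near the floor, in Smad4 −/− and 321 in Smad4 f/f, 2.10-fold lower by 1 measured probe set. Bloc1s3 had a log2 ratio of −0.75 and Bloc1s4 one of −0.27. Bloc1s6, pallidin, and Snapin had ratios of 0.51 and 0.47. Second measured probe sets gave 0.50 for Bloc1s4 and −1.05 for Bloc1s6, each opposite in sign to the first, and 0.69 for Snapin. Over the 10 measured of all 13 BLOC subunits, 8 lay below 0 and 5 were at least 1.5-fold lower (against 13.3% of all measured genes), with 0 at least 1.5-fold higher (against 11.8%). With quantile normalisation, loess correction or without probe sets ending in _s_at or _x_at 7 lay below 0, and with median centring 7 lay below 0, 4 were at least 1.5-fold lower and 1 was higher. With the floor at the 75th percentile 8 were measured, of which 6 lay below 0 and 4 were at least 1.5-fold lower. With no floor 12 were measured, of which 8 lay below 0, 5 were at least 1.5-fold lower and 2 at least 1.5-fold higher, with a median of −0.34. This grouping by complex was made after the values were seen.

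AP-3, the coat that sorts cargo from endosomes to lysosome-related organelles, has 4 genes in the list, Ap3b1, Ap3d1, Ap3m1 and Ap3s1, with log2 ratios from 0.01 to 0.22. With the mean over probe sets 1 of the 4 lay below 0. Ap3m1, the medium subunit, read 1682 in Smad4 −/− and 1459 in Smad4 f/f, a log2 ratio of 0.21, and its 4 measured probe sets ran from −0.74 to 0.21. The further AP-3 genes went both ways. Ap3b2 read 254 in Smad4 −/− and 140, below the floor, in Smad4 f/f, at least 1.75-fold higher. Ap3s2 read 383 in Smad4 −/− and 570 in Smad4 f/f, a log2 ratio of −0.57, close to the 1.5-fold rule on the lower side, and its other measured probe sets gave 0.13 and 0.45. Ap3m2 read 117, below the floor, in Smad4 −/− and 155 in Smad4 f/f, a log2 ratio of −0.09. Whether BLOC and AP-3 genes differ was not tested.

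**Figure D4:**
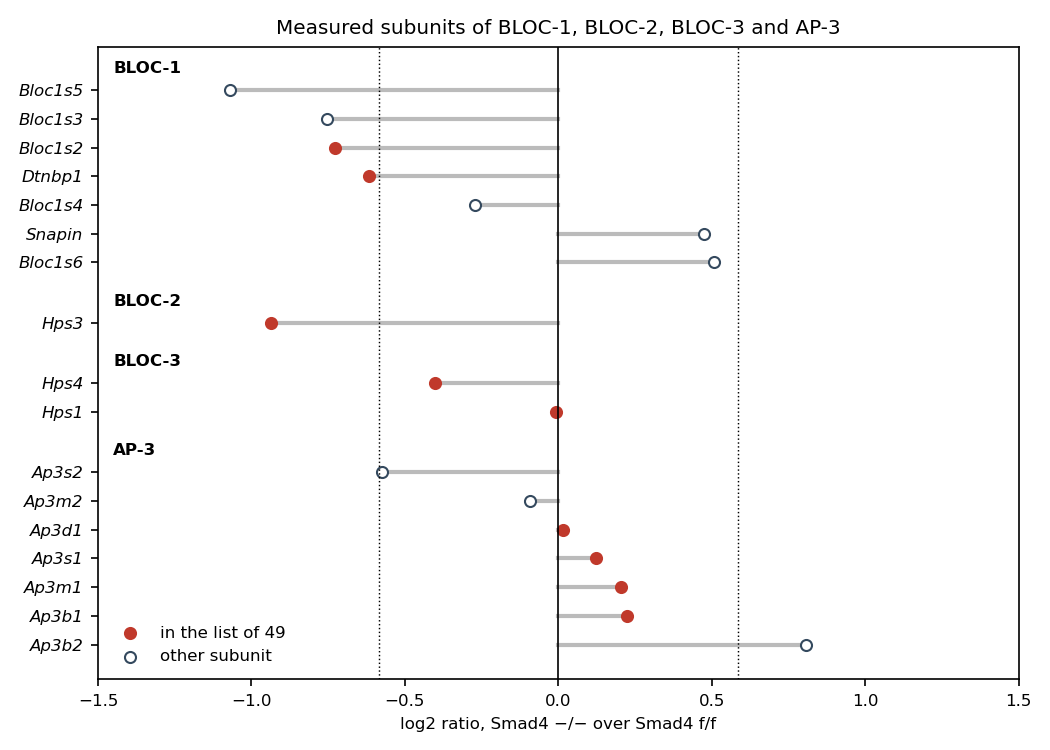
Log2 ratio, Smad4 −/− over Smad4 f/f (x axis), of the measured genes of BLOC-1, BLOC-2, BLOC-3 and AP-3 (rows), filled where the gene is in the list of 49 and open where it is another subunit. Dotted lines mark 1.5-fold. In the BLOC complexes 8 of 10 points lie left of 0 (7 of 10 with the other scalings), and in AP-3 5 of 7 lie right of 0.

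Few genes of the list that alpha granules depend on could be measured. Vps33b, a Sec1/Munc18 protein of alpha granule formation, was below the floor on both arrays, at 48.7 in Smad4 −/− and 37.3 in Smad4 f/f. Vipas39, of the same complex but outside the list, read 571 in Smad4 −/− and 623 in Smad4 f/f, a log2 ratio of −0.13. Its other measured probe set, which ends in _x_at, gave −0.34. Nbeal2, the BEACH protein lost in gray platelet syndrome, read 196 in Smad4 −/− and 30.0, below the floor, in Smad4 f/f, at least 1.35-fold higher, and its second probe set was below the floor on both. Vps16, a core subunit of the HOPS and CORVET tethers, read 138, below the floor, in Smad4 −/− and 281 in Smad4 f/f, at least 1.94-fold lower. That came to a log2 ratio of −0.11 with the floor at the 75th percentile. Its partner Vps33a was below the floor on both arrays. Of the 7 measured HOPS and CORVET genes, 1 was at least 1.5-fold lower (against 13.3% of all measured genes) and 2 higher (against 11.8%). The higher genes, outside the list, were Vps39 and Vps11. Vps39 read 396 in Smad4 −/− and 204 in Smad4 f/f, 1.94-fold higher. Vps11 read 231 in Smad4 −/− and 108, below the floor, in Smad4 f/f, at least 1.59-fold higher. Lyst, the BEACH protein of Chediak-Higashi syndrome, was level (log2 ratio 0.11, and 0.24 by its other measured probe set).

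Among the genes above the floor on both arrays, the 2 with the largest ratios by the probe set used were a transporter of the granule membrane and a sorting adaptor. Stx3 and Nbeal2, whose ratios are bounds, came to 1.84 and 2.71 with no floor. Abcc4, MRP4, a transporter of cyclic and adenine nucleotides found in dense granules and at the plasma membrane, read 2023 in Smad4 −/− and 4495 in Smad4 f/f, 2.22-fold lower. It has 1 probe set, and its log2 ratio of −1.15 stayed between −1.16 and −1.06 under the other scalings. The floor and probe set rules could not change it. Ston2, stonin-2, an adaptor that sorts synaptotagmin into endocytic vesicles in neurons, read 5041 in Smad4 −/− and 10670.2 in Smad4 f/f, 2.12-fold lower. Its second probe set went the same way with a smaller ratio, −0.38 (1585 in Smad4 −/− and 2062 in Smad4 f/f). The mean of both was −0.73, and with median centring the ratio was −0.99, each short of 2-fold. Among all measured genes, 221 had a lower ratio than Abcc4 and 289 a lower one than Ston2.

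The remaining dense granule genes of the list were level or below the floor. Slc18a2, VMAT2, which loads serotonin and other monoamines into dense granules, read 3232 in Smad4 −/− and 3005 in Smad4 f/f, a log2 ratio of 0.10. Slc35d3, an orphan transporter required for dense granules in mice, was below the floor on both arrays, at 59.5 in Smad4 −/− and 53.0 in Smad4 f/f.

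The wider pathway was read from 72 further listed genes, of which 68 have a probe set and 50 were measured. Of 12 measured among other SNAREs, 2 were at least 2-fold lower (against 3.58% of all measured genes) and 0 higher (against 3.42%), with a median of 0.04. At the 1.5-fold rule 3 of the 12 were lower (against 13.3%) and 0 higher (against 11.8%). Vti1a, a SNARE of the trans-Golgi and endosomes, was at least 2.16-fold lower, with 54.7, below the floor, in Smad4 −/− and 314 in Smad4 f/f, and −0.35 by its second measured probe set. Bet1, of endoplasmic reticulum to Golgi traffic, read 268 in Smad4 −/− and 548 in Smad4 f/f, 2.05-fold lower, and −0.24 by its second. Both are weak signals whose second probe set was short of 1.5-fold.

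Of 16 measured among other fusion regulators, including the exocyst, synaptotagmin-like proteins and Rab27, 0 passed 2-fold (against 3.58% of all measured genes lower and 3.42% higher). At least 1.5-fold higher were 2 of the 16 (against 11.8%) and lower 1 (against 13.3%), and the median was −0.05. Rab27b, the main Rab of platelet dense granule secretion in mice, read 45705 in Smad4 −/− and 50713 in Smad4 f/f, a log2 ratio of −0.15, and its 4 measured probe sets ran from −0.85 to 0.43. Of 22 measured among other biogenesis genes, 2 were at least 2-fold lower (against 3.58% of all measured genes), 1 was higher (against 3.42%), and the median was −0.13. Beside Bloc1s5, the lower gene was Wdr91, an endosome protein, with 256 in Smad4 −/− and 621 in Smad4 f/f (2.42-fold) but 0.65 by its second probe set. The higher gene was Nbea, neurobeachin, a BEACH relative of Nbeal2 and Lyst, with 3694 in Smad4 −/− and 1438 in Smad4 f/f, 2.57-fold higher by 1 probe set. At the 1.5-fold rule 4 of these 22 biogenesis genes were lower (against 13.3%) and 4 higher (against 11.8%).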

How the data were processed

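Total RNA of washed platelets was hybridised to Affymetrix mouse arrays, 1 per genotype. The deposited table gives a log2 signal for each probe set, made by the authors with MAS5, per the submitters' processing notes, which give no version; the scaling was read from the values, whose antilogs average 500.01 for each genotype once 2% are trimmed from either end. Of 45101 probe sets, 64 are controls, and of the others 34945 have 1 gene symbol, 932 several and 9160 none in the platform annotation, which can be old; through Entrez IDs 34741 matched RefSeq (GRCm38.p6) and 0 symbols changed. Values were used as scaled, with Python 3.11.15, pandas 2.3.3 and statsmodels 0.14.6 (loess). At or above the floor lay 38.5% of probe sets that are not controls in Smad4 −/− and 40.0% in Smad4 f/f. Detection calls were not used, and no test was run. The steps were tested on simulated data with large planted changes in genes well above the floor and with little noise. That check does not bear on ratios near 1.5-fold or on signals near the floor.

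All genes of the list are accounted for. Both signals are given for those past 1.5-fold, those with measured probe sets on both sides of 0 and more than 0.58 log2 units apart, and the 3 with the highest mean signal, and for some others picked after their values were seen; of the other pathway genes those past 2-fold are named, as are some chosen after their values were seen. The genes, lists, rules and alternatives were chosen with earlier results of these data known.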

Additional observations from a re-analysis of the deposited data

How the results depend on the processing

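The counts, medians and ratios of the listed genes, and the BLOC and AP-3 counts, were recomputed with median centring, quantile normalisation, loess correction, another floor (50th percentile, 75th percentile or no floor), averaging over the measured probe sets of each gene, and without probe sets ending in _s_at or _x_at; the marker, Smad4, other pathway and motif values were not. Abcc4 was at least 2-fold lower in Smad4 −/− under all of them, though with 1 probe set above every floor only the scalings could change it. The number of genes at least 2-fold lower was 2, but 1 with median centring and 1 with the mean of probe sets, and the number at least 2-fold higher was 0, but 1 with the lower floor (50th percentile) and 4 with no floor. At least 1.5-fold higher were 1 as reported, 2 with median centring, 2 with quantile normalisation, 2 with loess, 2 with the floor at the 50th percentile, 0 with it at the 75th and 4 with no floor. The count at least 1.5-fold lower stayed between 7 and 10, but with no floor its 10 of 48 genes (20.8%) were a smaller share than the 26.2% of all genes, and the median log2 ratio of the list between −0.10 and 0.01. Of 173 values of single named genes under an alternative, 165 moved by less than 0.48 (the SD between probe sets of a gene), 8 moved by more and 0 of the genes past 1.5-fold changed sign. Part of the 165 could not move, because floor and probe set rules leave a gene with 1 probe set above every floor unchanged. Without probe sets ending in _s_at or _x_at, the log2 ratio of Nsf was −0.97. The cause of these moves was not tested, beyond what each alternative itself changes. With 1 array per genotype nothing can be set against the spread between mice, and weak signals near the floor limit Stx3, Stx12, Stx18, Vps16 and Nbeal2 most. No paired analysis was possible because each genotype has a single array.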
